A study of Mus musculus with 13 samples.

Results

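Hepa 1-6, an established murine hepatoma line, was profiled by ChIP-seq, and the peaks described here are the RNA polymerase III (PolIII) peaks of control cells that touched an H3K9me3 region and no KAP1 peak. They were chosen by 3 measured lists: a control PolIII peak had to share at least 1 bp with an H3K9me3 region and no base with a KAP1 peak. Of 2772 control PolIII peaks, 454 met this rule, and they are called H3K9me3 PolIII peaks below. Of these, 397 lay on chr1 to chr4, 51 on chr5 to chr19 and 6 on chrX. Because the control PolIII list is much denser on the first 4 chromosomes, the autosomal sets are given apart unless a count is said to cover all chromosomes. They are set beside the 323 control PolIII peaks that touched a KAP1 peak, and beside the 1995 with neither KAP1 nor H3K9me3, called the remaining PolIII peaks.

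KAP1, H3K9me3, H3K27ac and H3K4me1 were profiled in Hepa 1-6 cells under standard culture in DMEM with fetal calf serum. PolII (antibody CTD4H8) and PolIII (antibody RPC32) were profiled in cells fixed 5 days after lentiviral transduction, either with a control vector (a control shRNA per the labels, an empty vector per the methods) or with an shRNA against KAP1 (*Kap1* KD). The H3K9me3 and KAP1 lists that define the H3K9me3 PolIII peaks thus come from other cells than the PolIII list. Each of the 8 lists is 1 library, so no value has a replicate error and conditions were not tested against each other. Intervals are 95% Wilson intervals that cover counting error over peaks only, and neighbouring peaks can share a domain. Read depth behind each list is unknown. As a check of the cell label, a control PolII peak lay within 250 bp of the start of 0 of 9 hepatocyte genes, including Alb, Afp and Ttr, and at 0 of 6 fibroblast or blood genes, while 13.1% of all annotated protein-coding promoters had one. *Kap1* KD PolII peaks lay at 2 of the 9, Apoh and Trf, and at 0 of the 6, with 23.3% of all promoters. H3K27ac regions, read at the same promoters after the PolII values were seen, lay at 5 of the 9 and 2 of the 6, with 19.9% of all promoters.

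PolIII makes short structured RNAs, among them tRNAs, 5S rRNA, the U6 spliceosomal RNA, 7SK and the RNA parts of RNase P and RNase MRP. The tRNA genes and many short interspersed repeats are recognised through internal A and B box sequences, and transcription stops at a run of T. H3K9me3 is the mark of constitutive heterochromatin and covers satellite repeats, transposable elements and zinc finger gene clusters. KAP1 is brought to DNA by KRAB zinc finger proteins and recruits the H3K9 methyltransferase SETDB1, but other methyltransferases deposit the same mark without it.

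The central 300 bases of 6 H3K9me3 PolIII peaks are printed as chosen examples, not as typical ones. Positions are mm9, counted from 1, on the plus strand. Capitals mark every base that lies inside a 100-base stretch found more than once in the assembly, 100 bases being the read length of the study. The first is the centre of the highest-scoring H3K9me3 PolIII peak, the next the centre of the highest-scoring pair of H3K9me3 PolIII peaks with identical sequence, and the other 4 come from those that also overlapped a *Kap1* KD PolIII peak.
chr1:173236721-173237020 (intergenic): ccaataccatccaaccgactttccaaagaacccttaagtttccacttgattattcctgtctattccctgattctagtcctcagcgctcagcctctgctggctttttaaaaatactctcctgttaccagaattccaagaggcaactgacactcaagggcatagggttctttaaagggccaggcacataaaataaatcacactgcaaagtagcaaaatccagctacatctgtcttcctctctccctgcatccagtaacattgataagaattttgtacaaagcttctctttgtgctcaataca
chr2:175388391-175388690 (intergenic): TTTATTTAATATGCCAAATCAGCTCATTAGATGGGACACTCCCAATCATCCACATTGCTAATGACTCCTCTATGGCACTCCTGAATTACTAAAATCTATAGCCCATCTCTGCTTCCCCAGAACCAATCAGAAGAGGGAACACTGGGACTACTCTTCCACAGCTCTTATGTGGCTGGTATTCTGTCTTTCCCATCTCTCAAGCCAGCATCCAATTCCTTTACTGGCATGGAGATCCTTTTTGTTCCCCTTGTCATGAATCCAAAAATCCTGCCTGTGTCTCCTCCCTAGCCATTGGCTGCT
chr2:175085274-175085573 (intergenic): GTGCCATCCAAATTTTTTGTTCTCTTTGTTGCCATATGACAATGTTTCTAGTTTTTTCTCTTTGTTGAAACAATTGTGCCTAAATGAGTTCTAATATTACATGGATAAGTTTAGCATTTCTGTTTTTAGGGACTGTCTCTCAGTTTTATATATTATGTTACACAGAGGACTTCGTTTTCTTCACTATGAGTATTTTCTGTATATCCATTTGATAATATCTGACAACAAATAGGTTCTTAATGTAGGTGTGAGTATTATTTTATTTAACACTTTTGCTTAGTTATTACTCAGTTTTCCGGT
chr3:44366427-44366726 (intergenic): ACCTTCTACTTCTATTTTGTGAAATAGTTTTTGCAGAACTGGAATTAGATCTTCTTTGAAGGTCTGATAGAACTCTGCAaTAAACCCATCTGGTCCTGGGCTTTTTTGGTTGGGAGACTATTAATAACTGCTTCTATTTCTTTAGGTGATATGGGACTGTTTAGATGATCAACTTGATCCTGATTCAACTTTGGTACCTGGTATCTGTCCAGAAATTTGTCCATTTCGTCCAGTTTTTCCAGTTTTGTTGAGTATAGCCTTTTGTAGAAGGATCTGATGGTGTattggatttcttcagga
chr4:61221577-61221876 (intergenic): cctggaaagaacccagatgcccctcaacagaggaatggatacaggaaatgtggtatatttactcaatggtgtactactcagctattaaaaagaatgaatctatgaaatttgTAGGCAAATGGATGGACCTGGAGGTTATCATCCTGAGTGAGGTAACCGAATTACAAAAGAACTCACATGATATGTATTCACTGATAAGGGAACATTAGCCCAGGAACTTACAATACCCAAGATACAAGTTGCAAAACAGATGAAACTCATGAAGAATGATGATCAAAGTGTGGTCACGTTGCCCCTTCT
chr6:145733300-145733599 (intron of Rassf8): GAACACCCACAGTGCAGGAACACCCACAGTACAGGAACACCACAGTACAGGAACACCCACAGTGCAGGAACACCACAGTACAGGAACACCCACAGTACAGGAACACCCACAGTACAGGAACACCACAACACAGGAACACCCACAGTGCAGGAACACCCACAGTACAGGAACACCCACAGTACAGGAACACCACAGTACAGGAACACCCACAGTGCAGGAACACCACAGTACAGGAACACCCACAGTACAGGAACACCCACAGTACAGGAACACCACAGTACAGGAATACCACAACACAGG
In the first window 0 of 300 bases lay in a repeated stretch, and in the second 300 of 300 did. The window on chr6 is a run of short near-identical units in which a shift of 50 bases matched the sequence to itself at 78.4% of positions. The windows on chr3 and chr4 were repeated over 282 and 189 of their 300 bases.

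The H3K9me3 PolIII peaks were concentrated where the control PolIII list itself was concentrated. There were 151 on chr1, 135 on chr2, 80 on chr3 and 31 on chr4, against at most 11 on any later chromosome, the 11 being on chr15. This equals 5.72 per 10 Mb on chr1 to chr4 and 0.287 per 10 Mb on chr5 to chr19. H3K9me3 regions had no such gradient, covering 1.42% of chr1 to chr4 and 1.64% of chr5 to chr19. Among PolIII peaks without KAP1, those in H3K9me3 made up 17.0% (15.5 to 18.5%) of 2339 on chr1 to chr4 and 49.5% (40.1 to 59.0%) of 103 on chr5 to chr19. That share was 11.7%, 19.3%, 29% and 39.2% on chr1, chr2, chr3 and chr4, so it rose as the number of PolIII peaks fell from 1343 to 87. Chromosome 15, with the highest H3K9me3 cover at 5.80% of its length, held 11 of the 51 peaks of the chr5 to chr19 set, and chr9, chr10, chr13 and chr18 held 0.

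**Figure D1:**
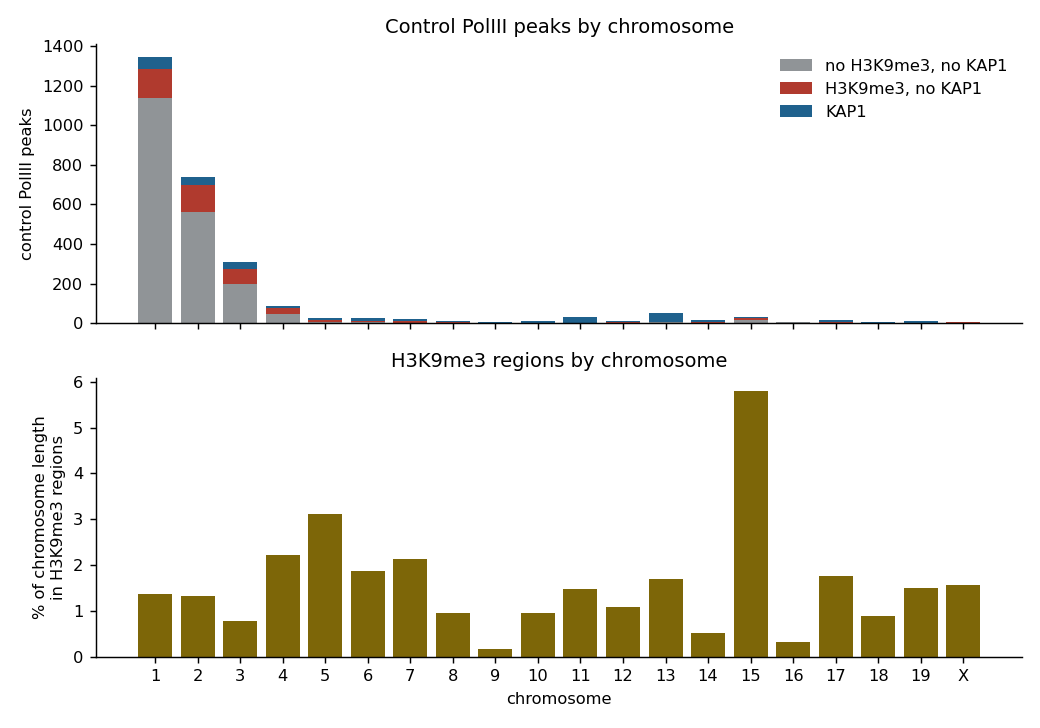
The upper bars count control PolIII peaks per chromosome, stacked by class, and the lower bars give the percent of each chromosome's length in H3K9me3 regions. PolIII peaks fall from 1343 on chr1 to 87 on chr4 while H3K9me3 cover is highest on chr15, at 5.80%.

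H3K9me3 PolIII peaks on chr1 to chr4 were broad, with a median width of 1450 bp (quartiles 811 and 2689 bp) and a widest peak of 21039 bp. The remaining PolIII peaks of the same chromosomes had a median of 1166 bp (759 and 1738 bp) and the KAP1 peaks one of 1293 bp. The median width of the chr5 to chr19 peaks was 909 bp (521 and 1352 bp), against 452 bp with KAP1 and 316 bp for the remaining peaks. The deposited score, whose meaning was not given in the sources used here, followed width closely, with a rank correlation of 0.982 across the 397 peaks and 0.973 across the 51. Median scores were 34 and 23, and the highest were 351 on chr1 to chr4 and 48 on chr5 to chr19. PolIII peaks with KAP1 on chr5 to chr19 were narrower yet had a higher median score, 81, and a weaker rank correlation of width and score, 0.657. Wide peaks have more bases with which to touch an H3K9me3 region, so the width of the selected peaks is partly set by the rule and is given as a description.

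H3K9me3 covered a median of 31.6% of an H3K9me3 PolIII peak on chr1 to chr4 and 78.0% on chr5 to chr19. The whole peak lay in H3K9me3 for 20 of 397 and for 21 of 51. Most touched a single H3K9me3 region, 301 of 397 and 45 of 51. Over all PolIII peaks without KAP1, 7.78% of bases lay in H3K9me3 on chr1 to chr4 and 51.2% on chr5 to chr19, against the 1.42% and 1.64% of chromosome length. At the edge of the rule, chr1:149834636-149835539 shared 13 bp with H3K9me3, and chr16:3116298-3116325 and chr4:63263299-63263345 shared 17 bp each. Just outside it, chr2:147420496-147420870 and chr2:168884278-168887815 ended 4 bp from an H3K9me3 region and chr2:60877650-60878848 ended 23 bp from one. The nearest KAP1 peak was at a median of 50987 bp on chr1 to chr4 and 87125 bp on chr5 to chr19. It was closest, at 46, 107 and 138 bp, for chr4:7014443-7015129, chr3:108739432-108739886 and chr2:180808480-180809841.

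**Figure D2:**
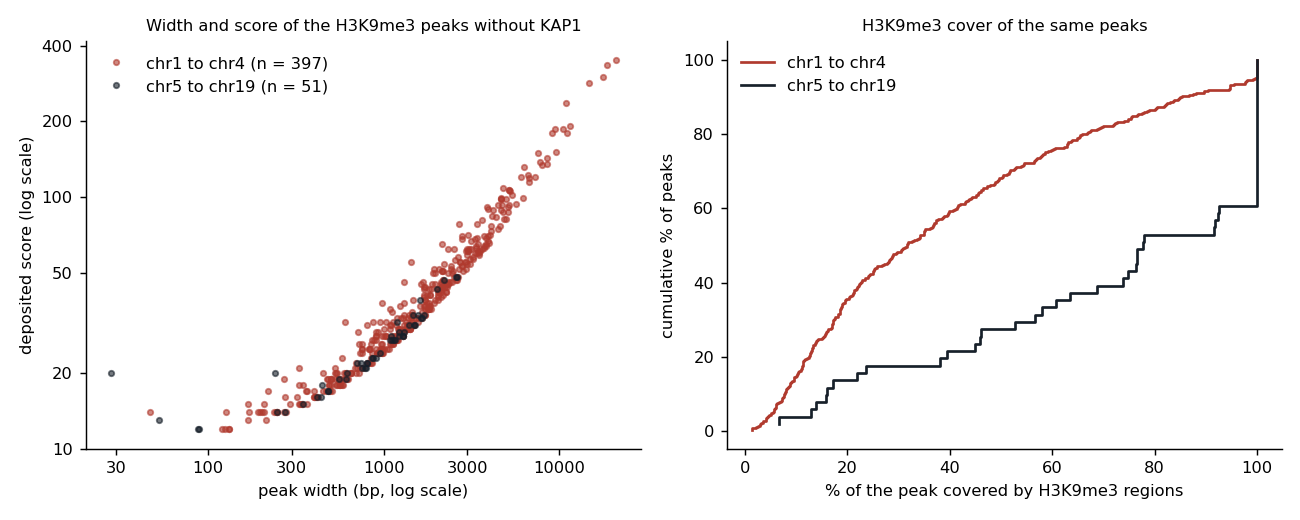
Left, width in bp against deposited score, both on log axes, 1 point per H3K9me3 PolIII peak. Right, the cumulative percent of these peaks by the percent of the peak that H3K9me3 covers. The chr1 to chr4 peaks reach 21039 bp with a median cover of 31.6%, and the chr5 to chr19 peaks reach 2605 bp with a median cover of 78.0%.

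The highest-scoring sites of chr1 to chr4 were very wide blocks. The peak chr1:173226352-173247390 (score 351) spanned Rpl27-ps1, which the annotation lists as protein-coding despite its pseudogene symbol, and a SNORA40 small nucleolar RNA gene, and only 5.73% of it lay in H3K9me3. At chr3:93519747-93538523 (score 335) the peak spanned Gm5852, with 53.0% in H3K9me3 across 12 regions. The peak chr3:106024822-106042482 (score 299) was intergenic, 2396 bp from Chi3l3, which codes for a chitinase-like protein, and had 21.1% in H3K9me3. On chr5 to chr19 the highest scores were 48 at chr5:146414717-146417321, 69117 bp from the cytochrome P450 gene Cyp3a41b, 48 at chr15:62103867-62106448 in an intron of Pvt1, a long noncoding RNA gene beside Myc, and 47 at chr6:145732348-145734552 in an intron of Rassf8. The first and last of these 3 were entirely inside H3K9me3, and the one in Pvt1 had 6.74%. All 3 also overlapped a *Kap1* KD PolII peak.

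Few of these sites had a PolIII peak under *Kap1* KD, a list that the rule did not use. An overlapping *Kap1* KD PolIII peak was found for 4 of 397 H3K9me3 PolIII peaks on chr1 to chr4, or 1.01% (0.392 to 2.56%), where all control PolIII peaks gave 1.57%. Only 1 of 51 of the chr5 to chr19 set had such a peak, or 1.96% (0.347 to 10.3%), where all control PolIII peaks gave 51.8%. PolIII peaks with KAP1 had one more often, at 22.0% (15.9 to 29.5%) and 79.6% (73.1 to 84.8%), and these intervals do not meet those of the H3K9me3 PolIII peaks in either set. The remaining PolIII peaks, at 0.206% (0.0801 to 0.528%) and 3.85% (1.06 to 13.0%), had intervals that overlap them in both. The chr1 to chr4 share of the H3K9me3 PolIII peaks was therefore close to the share over all control peaks, and the chr5 to chr19 share was below it. The *Kap1* KD list is far shorter, 431 peaks against 2772, and holds 89 peaks on chr1 to chr4.

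Of the 5 H3K9me3 PolIII peaks with a *Kap1* KD peak, an inverted pair of 5179 bp each, chr2:175082835-175088013 and chr2:175812679-175817857, 730 kb apart, had the same score of 107 and shared 98% of their 100-base stretches. The other 3 were chr3:44366314-44366839 (score 21), which also overlapped H3K27ac and H3K4me1, chr4:61220884-61222569 (score 46), 30391 bp from the major urinary protein gene Mup17, and the Rassf8 site (score 47). Every 100-base stretch of the chr2 pair occurred more than once in mm9, as did 72.6% of those at Rassf8, 48.9% of those near Mup17 and 29.7% of those on chr3. On chr1 to chr4 most stretches were repeated in 2 of these 4, against 41% of the 393 H3K9me3 PolIII peaks with no *Kap1* KD peak.

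Both PolIII lists are numbered in genome order with numbers missing, 1212 of 3984 in the control list and 527 of 958 in the *Kap1* KD list, for a reason not given in the sources used here. Of the 397 H3K9me3 PolIII peaks on chr1 to chr4, 281 (70.8%) lay where the *Kap1* KD numbering skips, against 66.5% of all control PolIII peaks there and, with overlap of intervals, 66.8% (64.7 to 68.8%) of the remaining ones. For 112 of the 397 no number was skipped. The same counts for chr5 to chr19 were 43 and 7 of 51. The 43 make 84.3% (72.0 to 91.8%), against 32% of all control PolIII peaks and, with overlap of intervals, 71.2% (57.7 to 81.7%) of the remaining ones. Peaks that overlapped a *Kap1* KD PolIII peak, 51.8% of all there, could not count as lying at a skip, which lowers the 32%. A skipped number lies somewhere between the flanking *Kap1* KD peaks, so it does not place a missing peak at the site.

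The same rule applied to the *Kap1* KD list gave 91 of 431 peaks, of which 22 lay on chr1 to chr4 and 69 on chr5 to chr19, and 5 of the 91 overlapped a control PolIII peak. Among *Kap1* KD PolIII peaks without KAP1, 37.9% (26.6 to 50.8%) on chr1 to chr4 and 32.5% (26.6 to 39.1%) on chr5 to chr19 were in H3K9me3. The control list gave 17.0% and 49.5%, and the lists, each 1 library, were not tested against each other. The *Kap1* KD peaks that met the rule were wider, with medians of 1774 and 3062 bp against 1450 and 909 bp in the control list. Chromosome 15 held 22 of the 69.

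PolII lay on a minority of the H3K9me3 PolIII peaks and was found more often in the *Kap1* KD list than in the control list. Control PolII peaks overlapped 15 of 397 on chr1 to chr4, or 3.78% (2.30 to 6.14%), against 1.94% of all control PolIII peaks. They overlapped 3 of 51 on chr5 to chr19, or 5.88% (2.02 to 15.9%), against 12.0% of all. *Kap1* KD PolII peaks overlapped 47 of 397, or 11.8% (9.02 to 15.4%), against 4.76% of all, and 18 of 51, or 35.3% (23.6 to 49.0%), against 26.8% of all. The intervals of the 2 chromosome sets do not meet for *Kap1* KD PolII. The *Kap1* KD PolII list is itself longer, with 12862 peaks over 17.6 Mb against 5015 over 7.97 Mb. A *Kap1* KD PolII peak with no control one was present at 39 of 397 and 16 of 51, a control one with no *Kap1* KD one at 7 and 1, and both at 8 and 2. The first pair makes 9.82% (7.27 to 13.1%) and 31.4% (20.3 to 45.0%), where all control PolIII peaks gave 3.43% and 16.2%, the second 1.76% and 1.96%, where all gave 0.605% and 1.41%, and the third 2.02% and 3.92%, where all gave 1.33% and 10.6%.

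Against the remaining PolIII peaks, the H3K9me3 PolIII peaks of chr1 to chr4 had more PolII in both lists. The remaining peaks had 1.13% (0.749 to 1.71%) with control PolII and 2.32% (1.74 to 3.09%) with *Kap1* KD PolII, and neither interval meets that of the H3K9me3 PolIII peaks, which are the wider. With every peak cut to 500 bp around its centre, the control PolII shares were 1.79% (0.765 to 4.11%) of 280 and 0.861% (0.545 to 1.36%), so that those intervals overlap, and the *Kap1* KD PolII shares were 9.64% (6.71 to 13.7%) and 1.63% (1.17 to 2.26%), which still do not meet. The remaining peaks of chr5 to chr19 had 15.4% (8.01 to 27.5%) for each list, and both intervals overlap. PolIII peaks with KAP1 had control PolII at 7.80% (4.41 to 13.4%) and *Kap1* KD PolII at 18.4% (12.9 to 25.6%) on chr1 to chr4. On chr5 to chr19 they had 12.7% (8.62 to 18.3%) and 27.6% (21.6 to 34.6%). Each of these intervals overlaps that of the H3K9me3 PolIII peaks. Without the H3K9me3 PolIII peaks made mostly of repeated sequence, the *Kap1* KD PolII share was 8.12% (5.26 to 12.3%) on chr1 to chr4 and 34.8% (18.8 to 55.1%) of 23 on chr5 to chr19. All control PolIII peaks left by the same filter gave 3.38% and 25.6%. The remaining peaks it left gave 1.85% (1.32 to 2.58%) and, with 1 of 27, 3.70% (0.657 to 18.3%), so that the intervals then meet in neither chromosome set. Peaks made mostly of repeated sequence were 59.6% of the 47 with *Kap1* KD PolII and 38.6% of the 350 without on chr1 to chr4, and 55.6% of 18 with and 54.5% of 33 without on chr5 to chr19.

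The highest-scoring H3K9me3 PolIII peaks with control PolII were chr3:96157076-96164607 (score 150), over a U1 small nuclear RNA gene, chr2:177251386-177256189 (score 109) in an intron of Gm14420, and chr2:177185244-177190657 (score 102), 2218 bp from Gm14418. U1 genes are transcribed by PolII and code for the small nuclear RNA that recognises 5′ splice sites. The U1 site and chr3:96178546-96184816 (score 132) shared 94.7% of their 100-base stretches in opposite orientation, and the second had no PolII peak in either list.

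Of the marks of active chromatin, H3K27ac was rare and H3K4me1 less so. H3K27ac regions overlapped 8 of 397 on chr1 to chr4, or 2.02% (1.02 to 3.93%), where all control PolIII peaks gave 4.40%, and 1 of 51 on chr5 to chr19, or 1.96% (0.347 to 10.3%), where all gave 32.4%. KAP1 PolIII peaks had 35.5% (28.0 to 43.6%) and 48.6% (41.4 to 55.9%), and these intervals do not meet those of the H3K9me3 PolIII peaks. H3K4me1 regions overlapped 49 of 397, or 12.3% (9.46 to 15.9%), where all gave 9.23%, and 15 of 51, or 29.4% (18.7 to 43.0%), where all gave 40.1%. Without peaks made mostly of repeated sequence, the latter pair was 47.8% (29.2 to 67.0%) of 23 and 47.6% of all 227. KAP1 PolIII peaks had H3K4me1 at 34.8% (27.4 to 42.9%) on chr1 to chr4, above the H3K9me3 PolIII peaks with no overlap of intervals. On chr5 to chr19 they had it at 48.6% (41.4 to 55.9%), with overlap. The remaining PolIII peaks of chr1 to chr4 had H3K4me1 at 6.75% (5.71 to 7.95%), below the H3K9me3 PolIII peaks with no overlap of intervals, and H3K27ac at 2.63% (2.0 to 3.44%), with overlap. For chr5 to chr19 they had H3K27ac at 5.77% (1.98 to 15.6%) and H3K4me1 at 21.2% (12.2 to 34.0%), both overlapping the H3K9me3 PolIII peaks. With every peak cut to 500 bp, the H3K4me1 shares of the H3K9me3 and the remaining PolIII peaks were 8.21% (5.54 to 12.0%) and 4.54% (3.73 to 5.52%) on chr1 to chr4. They were 20% (10.9 to 33.8%) and 25.9% (16.3 to 38.4%) on chr5 to chr19, with overlap.

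The highest-scoring H3K9me3 PolIII peaks with H3K27ac were chr1:46046729-46052963 (score 99) and another near-copy pair, chr3:98284804-98289455 and chr3:98338277-98342916, both with score 98. This pair lay 53.5 kb apart beside Hsd3b4 and Gm10681 and shared 97.7% of its 100-base stretches. Hsd3b4 belongs to the 3-beta-hydroxysteroid dehydrogenase family, which takes part in steroid synthesis. In all, 307 of 397 H3K9me3 PolIII peaks on chr1 to chr4 and 24 of 51 on chr5 to chr19 overlapped none of the 5 lists that the rule did not use, or 77.3% (73.0 to 81.2%) and 47.1% (34.1 to 60.5%), where all control PolIII peaks gave 86.3% and 24.6%. The remaining PolIII peaks gave 91.1% (89.7 to 92.3%) and 61.5% (48.0 to 73.5%).

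**Figure D3:**
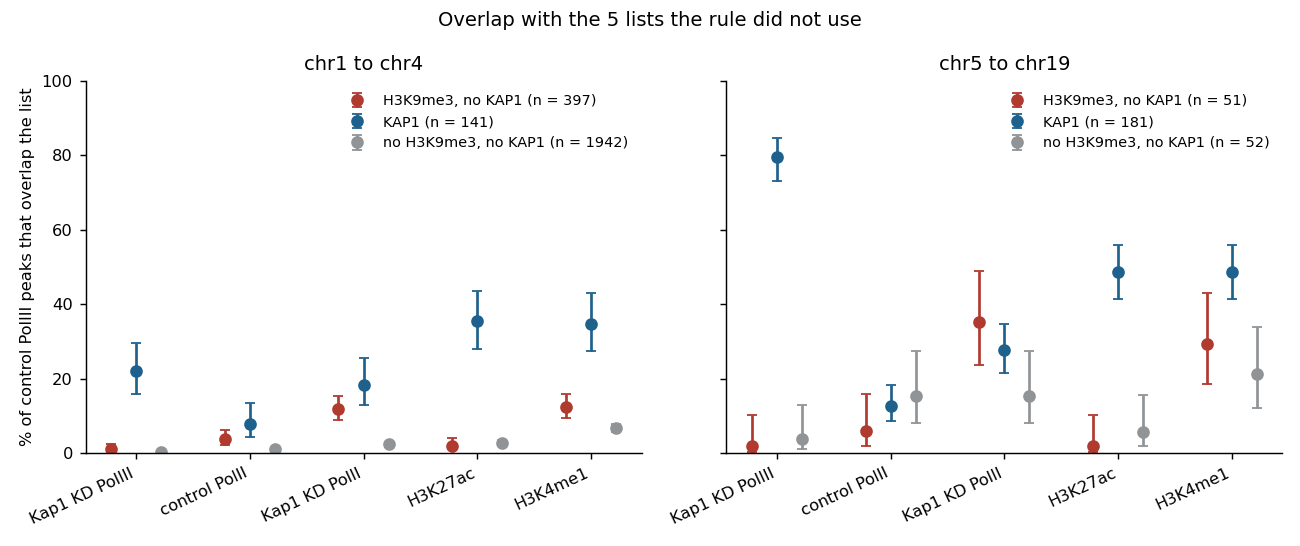
Points give the percent of control PolIII peaks that overlap each of 5 other lists, by class and chromosome set, and bars are 95% Wilson intervals over peaks. H3K9me3 PolIII peaks without KAP1 sit at 1.01% and 1.96% for *Kap1* KD PolIII, far under the KAP1 class at 22.0% and 79.6%.

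Seen from the side of the mark, H3K9me3 regions under these PolIII peaks carried PolII more often than other H3K9me3 regions, both counted without regions that touch KAP1. Of 542 such regions on chr1 to chr4, 8.86% (6.74 to 11.5%) overlapped a *Kap1* KD PolII peak and 2.95% (1.83 to 4.74%) a control PolII peak. Of 14588 H3K9me3 regions there with neither a control PolIII peak nor KAP1, 2.31% (2.08 to 2.57%) and 0.363% (0.278 to 0.475%) did. On chr5 to chr19 the *Kap1* KD PolII shares were 32.1% (21.4 to 45.2%) of 56 regions and 2.94% (2.78 to 3.11%) of 39846. In none of these comparisons do the intervals meet. The regions under PolIII peaks were wider, with medians of 395 against 268 bp and 871 against 327 bp, and the part of width in these shares was not tested. H3K4me1 lay on 7.93% (5.94 to 10.5%) against 5.74% (5.38 to 6.13%) on chr1 to chr4, with overlapping intervals, and on 25% (15.5 to 37.7%) against 8.18% (7.92 to 8.46%) on chr5 to chr19.

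No H3K9me3 PolIII peak lay over an annotated PolIII gene of the kinds counted here, and no remaining PolIII peak did. The annotation (GENCODE M1) held 1650 genes of PolIII RNAs, namely 964 of U6 or U6atac, 331 of 7SK, 309 of 5S rRNA, 24 of Y RNAs, 18 of RNase P RNA, 2 of RNase MRP RNA and 2 of vault RNA. It held no genes of tRNAs, of the signal recognition particle RNA or of BC1 RNA under the symbols searched. None of the 454 peaks overlapped one of the 1650, which allows a share of up to 0.661%, all chromosomes together. PolIII peaks with KAP1 overlapped one at 3 of 141 on chr1 to chr4 and 8 of 181 on chr5 to chr19, and the remaining peaks at 0 of 1942 and 0 of 52. Over all 2772 control PolIII peaks there were 11 such overlaps, every one with KAP1. The 0 thus does not set the H3K9me3 PolIII peaks apart from the remaining ones. Small RNA genes of other classes lay under 4 H3K9me3 PolIII peaks, namely SNORA40 at the chr1 site above, SNORA17 at chr2:151108708-151111635 and chr2:151193355-151198099, and U1 at the chr3 site. These were 4 of 397 on chr1 to chr4 and 0 of 51 on chr5 to chr19. Over all control PolIII peaks, small nuclear, small nucleolar, ribosomal and miscellaneous RNA genes, with PolIII genes not taken out, lay under 0.484% and 4.93%.

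A B box stood in for the tRNA genes that the annotation lacks. The letters searched on both strands were GGTTCGANNCC, where N is any base. In the central 300 bp it was present in 2 of 397 H3K9me3 PolIII peaks of chr1 to chr4, or 0.504% (0.138 to 1.82%), and in 0 of 51 of chr5 to chr19, where the interval reaches 7.0%. Of all 300-base tiles of the same chromosomes, 0.0626% and 0.0718% held it, and of all control PolIII peaks 0.605% and 20.4% did. The remaining peaks had 0.0515% (0.00909 to 0.291%) and 1.92% (0.340 to 10.1%), intervals that overlap those of the H3K9me3 PolIII peaks. PolIII peaks with KAP1 held it at 8.51% (4.94 to 14.3%) and 31.5% (25.2 to 38.6%), above the H3K9me3 PolIII peaks in both sets with no overlap of intervals. Over the whole peak, 5 H3K9me3 PolIII peaks contained a B box, or 1.26% (0.539 to 2.91%) of the 397 on chr1 to chr4. The remaining peaks there had 0.309% (0.142 to 0.672%), with overlap, and the KAP1 peaks 15.6% (10.5 to 22.5%). On chr5 to chr19 it was in 0 of 51, against 1.92% and 44.2%. The 5 were chr2:179347529-179348824 over the pseudogene Gm14300, chr3:18189502-18191449, chr3:96150158-96153392, chr3:96188502-96192979 and chr4:4270644-4271469. The third and the fourth shared 93.0% of their 100-base stretches. A run of 5 T on either strand, the letters TTTTT, was in 64.5% of central windows on chr1 to chr4 and 45.1% on chr5 to chr19, against 68.7% and 67.1% of tiles and 62.3% and 50% of the remaining peaks.

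Base composition was close to that of the genome. Median GC was 43.3% on both chromosome sets, against 41.3% and 42.0% for all tiles, 43.3% and 44.0% for the remaining peaks and 45.7% and 45.0% for the KAP1 peaks. The CpG ratio, the number of CpG over that expected from the C and G content, had medians of 0.176 and 0.123, against 0.147 and 0.153 for tiles and 0.298 and 0.656 for PolIII peaks with KAP1.

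Fewer H3K9me3 PolIII peaks than remaining PolIII peaks of chr1 to chr4 were centred in a gene. The centre was intergenic for 66.0% (61.2 to 70.5%), against 53.9% of all control PolIII peaks, 58.6% of length and 51.2% (49.0 to 53.4%) of the remaining peaks. It was in an intron for 28.0% (23.8 to 32.6%), against 35.6% of length and 40.1% (38.0 to 42.3%) of the remaining peaks. It lay within 1 kb of a protein-coding transcription start site (TSS) for 3.02% (1.74 to 5.21%), against 4.48% of all control PolIII peaks and 3.12% of length. The remaining peaks gave 4.02% (3.23 to 4.98%) and the KAP1 peaks 14.9% (9.95 to 21.7%). The share of H3K9me3 PolIII peaks depends on the distance allowed, being 0.252% within 250 bp and 12.1% within 5 kb. On chr5 to chr19, 60.8% (47.1 to 73.0%) were intergenic, against 63.7% of all control PolIII peaks, 58.7% of length and 61.5% (48.0 to 73.5%) of the remaining peaks. There 1 of 51 centres was near a TSS, that of the defensin gene Defa20, against 13.7% of all control PolIII peaks, 3.06% of length and 0 of 52 remaining peaks. The 12 near a TSS on chr1 to chr4 included those of Cpa6, Cryge, a lens crystallin gene, Plcb4, Bcas1, Defb36, another defensin gene, Svs3a, a seminal vesicle protein gene, Tdpoz5 and Chi3l3. Of the gene families chosen for counting, pseudogenes, counted by annotated biotype, lay under 14 of 397, or 3.53% (2.11 to 5.83%), against 1.69% of all control PolIII peaks of chr1 to chr4 and 1.39% (0.957 to 2.02%) of the remaining peaks. Symbols of the Zfp series lay under 2 of 397 (Zfp442 and Zfp697), vomeronasal receptor symbols under 2 (Vmn2r5 and Vmn2r-ps11) and olfactory receptor symbols under 0. Over all 2480 control PolIII peaks these counts were 6, 4 and 1. Zinc finger genes under other symbols, such as predicted Gm genes, would be missed by the Zfp count. The 51 peaks of chr5 to chr19 included 1 over a pseudogene, the only such peak among all 284 there, and Zfp, vomeronasal and olfactory receptor symbols lay under 0 of the 284.

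Of the 397 on chr1 to chr4, 288 (72.5%) lay within 500 kb of another, where 95.6% of all control PolIII peaks lay that close to another control PolIII peak and 94.2% of the remaining peaks that close to another remaining peak, and 132 formed 11 chains of 5 or more with gaps of at most 500 kb. On chr5 to chr19, 14 of 51 (27.5%) had such a neighbour, against 51.1% of all 284 control PolIII peaks and 7.69% of the 52 remaining peaks, and no chain reached 5. These shares depend on how many peaks a class holds. These chains were picked by their density, so the counts are descriptions.

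The longest chain, chr2:173699189-178184721, held 40 H3K9me3 PolIII peaks among 74 control PolIII peaks and 65 protein-coding genes, from Stx16 and Gnas past a long series of predicted Gm genes to Zfp931 and Phactr3. The gene family of these Gm genes was not assessed. H3K9me3 covered 10.4% of the chain. Most 100-base stretches were repeated in 28 of the 40. A chain at chr3:93014330-93944543 held 20 among the filaggrin family genes Flg, Flg2, Hrnr, Rptn and Tchh, which code for proteins of the cornified skin layer, S100a10 and S100a11, and the Tdpoz genes.

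Not every chain was repeated sequence. The 13 H3K9me3 PolIII peaks at chr3:105888921-106108863 ran over Chia, the acidic mammalian chitinase gene, and the chitinase-like genes Chi3l3 and Chi3l4, and 21.1% of the span was H3K9me3. A median of 2.69% of their 100-base stretches was repeated, their median width was 4639 bp, and 8 of the 13 overlapped H3K4me1. The 8 of chr4:145864738-147004411, around Rex2 and Zfp600, were the opposite. All of their 100-base stretches were repeated and H3K9me3 covered 54.7% of the span.

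**Figure D4:**
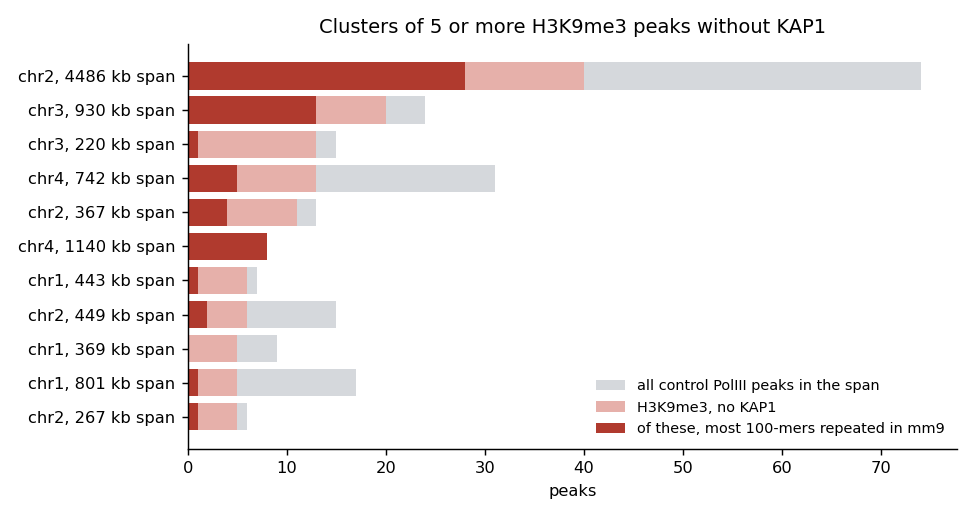
Each bar is a chain of 5 or more H3K9me3 PolIII peaks with gaps of at most 500 kb, and its length counts peaks. Grey is all control PolIII peaks in the span, pink the H3K9me3 PolIII peaks and red those in which most 100-base stretches occur more than once in mm9. In the longest, 28 of 40 are red, and in the chitinase chain on chr3 of 220 kb, 1 of 13.

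Repeated sequence was more common in the H3K9me3 PolIII peaks of chr1 to chr4 than in other PolIII peaks. Most 100-base stretches occurred more than once in mm9 in 163 of 397, or 41.1% (36.3 to 46.0%), where all control PolIII peaks of these chromosomes gave 14.1%. The shares were 22.7% (16.6 to 30.3%) with KAP1 and 7.98% (6.86 to 9.27%) for the remaining peaks, with no overlap of intervals. The count was 28 of 51 on chr5 to chr19, or 54.9% (41.4 to 67.7%), where all gave 20.1%. There the KAP1 peaks had 2.21% (0.863 to 5.54%) and the remaining peaks 48.1% (35.1 to 61.3%), the last overlapping the H3K9me3 PolIII peaks. All 6 on chrX were repeated over every stretch. No stretch was repeated in 59 of 397 and 10 of 51.

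Repeated sequence was also present in the H3K9me3 list itself. The central 100 bases were repeated for 44.3% (39.5 to 49.3%) of the 397 and 45.1% (32.3 to 58.6%) of the 51, against 38.8% of all 16809 H3K9me3 regions of chr1 to chr4 and 35.8% of all 43753 of chr5 to chr19. The first of these values lies just below its interval and the second inside its own. Centres were repeated for 8.60% and 8.34% of the KAP1 list and for 3.05% and 2.78% of the H3K27ac list on the same chromosome sets. The part of H3K9me3 itself in the repeat share of these PolIII peaks cannot be told apart from the rule, which required the mark.

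**Figure D5:**
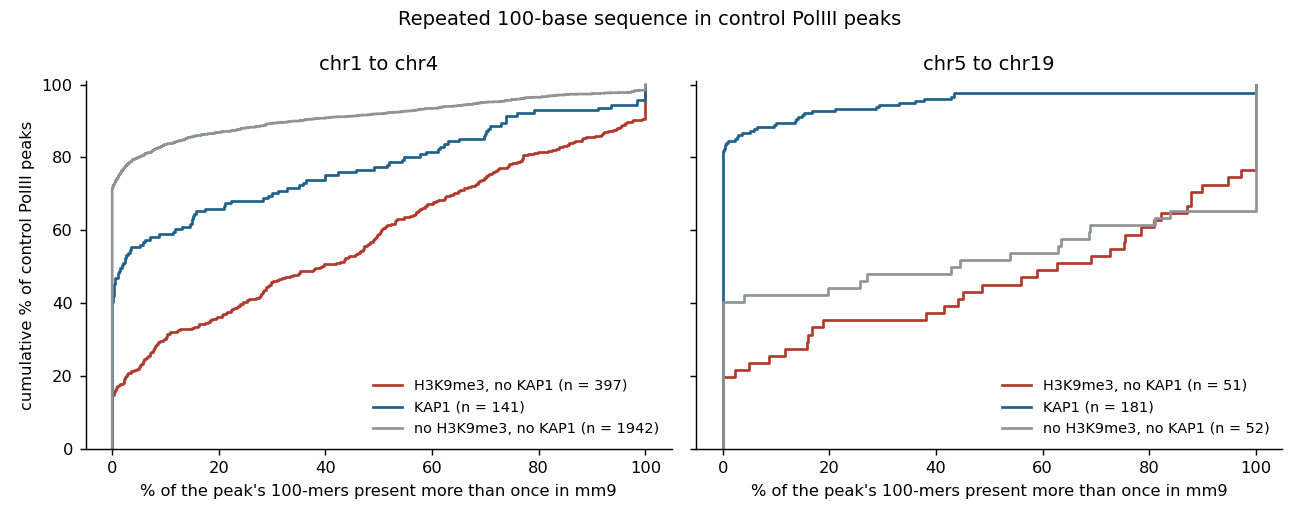
Curves give the cumulative percent of control PolIII peaks by the percent of their 100-base stretches that occur more than once in mm9, by class and chromosome set. At the left edge 71.3% of the remaining peaks of chr1 to chr4 have no repeated stretch, against 14.9% of H3K9me3 PolIII peaks.

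Some of the peaks were copies of each other. Among H3K9me3 PolIII peaks of equal width on all chromosomes, 10 pairs matched at 90% or more of positions, and all 10 matched at 100% and had equal scores. The widest were chr2:175387445-175389636 and chr2:176631791-176633982, 2192 bp each with score 47, and chr5:94576164-94577450 and chr5:96191763-96193049, 1287 bp each with score 28. On chr4 the 503 bp peaks at 145864738, 146410093 and 146748331 were 3 copies of 1 sequence with score 19. Identical sequence did not always give the same peak. Every 100-base stretch of chr2:177759784-177761090 (1307 bp, score 46) was also in chr2:177633653-177636440 (2788 bp, score 70). Among the 284 H3K9me3 PolIII peaks of 1 kb or more, 23 pairs involving 38 peaks shared most 100-base stretches, all 23 pairs on the same chromosome and 9 of them inverted. Of the 23, 21 lay on chr1 to chr4 and 2 on chr5 to chr19. A read of 100 bases from a shared stretch fits each copy equally well. How the mapping placed such reads is not given in the sources used here, and its part in these peaks was not tested.

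Some other copies of a repeated centre also lay in control PolIII peaks. Of the 397 on chr1 to chr4, 158 had a central 100-base stretch with 2 to 50 copies, which gave 436 other copies. Within 1 Mb, 59 of 162 copies (36.4%) lay in a control PolIII peak. Farther away but still on chr1 to chr4, 21 of 106 (19.8%) did. Of the 142 exact copies on chr5 to chr19, belonging to 52 of the peaks, 0 lay in a control PolIII peak and 26 (18.3%) lay in an H3K9me3 region. Control PolIII peaks cover 0.567% of chr1 to chr4 and 0.0107% of chr5 to chr19, so few such overlaps could arise on the latter, and nothing is read from the 0. For the 51 of chr5 to chr19, 15 of 31 copies within 1 Mb and 3 of 16 farther copies on chr5 to chr19 lay in a control PolIII peak.

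Simple tandem repeats were a smaller group. The central 300 bp matched itself at 80% or more of positions after a shift of 5 to 100 bases in 11 of 397, or 2.77% (1.55 to 4.89%), and in 6 of 51, or 11.8% (5.51 to 23.4%). The remaining peaks had 1.03% (0.668 to 1.59%) and 25% (15.2 to 38.2%), and the KAP1 peaks 3.55% (1.52 to 8.03%) and 0 of 181. The H3K9me3 PolIII peaks thus lay between these classes on both chromosome sets, and their intervals overlap those of the remaining peaks. The best shift among the 17 H3K9me3 PolIII peaks ranged from 18 bases at chr4:63263299-63263345 to 92 bases at chr2:135503848-135504647 in an intron of Plcb4. At chr19:24420320-24420561, in an intron of Pip5k1b, a shift of 52 bases matched at 100%.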

How the data were processed

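ChIP-seq of Hepa 1-6 cells gave 13 samples, of which 8 have a peak list and 5, all inputs, were not analysed here. Per the methods of the study, the authors mapped reads with Bowtie to mm9, used MACS with a total input control for KAP1 and PolII and ChIP-Part for the histone marks. The PolIII caller is not given in the sources used here. The deposited lists hold positions, and the KAP1 and polymerase lists carry a score, used here only to order or select peaks and taken as the authors' own unit. No read counts were held, so depth is unknown. Groups came from the antibody and cell labels.

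Peaks overlapped when sharing at least 1 bp. Classes, shares and Wilson intervals were computed with Python 3 (numpy, pandas, scipy), and sequences and genes came from the mm9 assembly and GENCODE M1 (NCBIM37). A stretch was repeated when its 100 bases occurred more than once on either strand of mm9. The scripts were checked on simulated data. The members and lists were chosen with earlier results of these data known. Named sites were the 3 highest scores per chromosome set, the 3 highest scores with control PolII and with H3K27ac, those with a *Kap1* KD PolIII peak, and those at the edges of the rule. Chains, near-copy pairs and repeats were added after the data were seen. Alternatives were other overlap, distance, score, width and merging rules.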

Additional observations from a re-analysis of the deposited data

How the results depend on the processing

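No paired analysis was possible because each list is 1 library and no result comes from a replicated test. The alternatives gave 112 values, of which 92 stayed within 1.5 times the main count or inside the interval or quartiles of the main value. Requiring H3K9me3 over at least 50% of the peak left 127 peaks on chr1 to chr4, in which the *Kap1* KD PolII share was 15.7%. Requiring a score at or above the median of the control list left 246 on chr1 to chr4 and 16 on chr5 to chr19, with H3K27ac at 0% and a median width of 1594 bp in the latter, and a median of 1778 bp for the other control PolIII peaks of chr1 to chr4. Peaks cut to 500 bp gave 1.79% with control PolII and 8.21% with H3K4me1 on chr1 to chr4, and counting H3K4me1 within 1 kb gave 16.1%. Centres near a protein-coding TSS made up 0.252% and 12.1% on chr1 to chr4 within 250 bp and 5 kb, and 0% and 7.84% on chr5 to chr19. Added after the data were seen, requiring at least 90% of the 100-base stretches to be repeated gave 14.4% and 27.5% on the 2 chromosome sets, and peaks below the median score gave 52.3% on chr1 to chr4. Without peaks made mostly of repeated sequence, the *Kap1* KD PolII share on chr1 to chr4 was 8.12%, and on chr5 to chr19 *Kap1* KD PolIII and H3K27ac were at 0% and H3K4me1 at 47.8% of 23 peaks. Leaving out chr15 moved no share of chr5 to chr19 outside its interval. Depth is unknown and limits what an absent peak shows.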

Other observations

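The 6 H3K9me3 PolIII peaks of chrX, which belong to neither chromosome set, had a median width of 391 bp, scores of 11 to 22 and a median H3K9me3 cover of 78.6%. They included identical pairs of 432 bp at chrX:26567391-26567822 and chrX:30029680-30030111 and of 42 bp at chrX:31332951-31332992 and chrX:31727684-31727725. H3K4me1 lay on 3, H3K27ac on 2, *Kap1* KD PolII on 1 and *Kap1* KD PolIII on 0 of the 6, where the counts over all 8 control PolIII peaks of chrX were 3, 2, 1 and 1.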
